A study of Mus musculus with 6 samples.

Results

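Transcripts of the collagens and of the enzymes and chaperones that build collagen were followed in the left ventricles of mice under angiotensin II. The genes were chosen by symbol alone: every numbered collagen chain, the prolyl and lysyl hydroxylases, the lysyl oxidases, and Serpinh1, Bmp1, Pcolce and Pcolce2. The rule found 50 genes among the 13384 in the table, 32 of them collagen chains and 18 processing genes, and all 50 passed the filter on low counts. The knockout group (KO) held 3 mice labelled Cygb(-/-), in which the cytoglobin gene Cygb is deleted in the whole body, and the wild-type group (WT) held 3 littermates labelled Cygb(+/+). Cytoglobin is a globin of fibroblasts and vessel wall cells, and its own transcript was not analysed here, so the genotypes rest on the labels. All 6 adult mice, controls included, carried subcutaneous osmotic pumps for 2 weeks that delivered 1.5 mg/kg/day of angiotensin II, a hormone that raises blood pressure. Mice without the hormone were not analysed here. Each library came from 1 mouse, so the spread between replicates includes the spread between animals. Strain, sex and exact age are not given in the labels. The comparison asked which of these transcripts differ between the genotypes in a ventricle under this stress.

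Collagens are made of 3 chains that wind into a triple helix. Inside the cell, prolyl and lysyl hydroxylases modify the chains and the chaperone Hsp47, encoded by Serpinh1, guards the folded helix. Outside it, peptidases remove the propeptides of fibrillar procollagen and lysyl oxidases crosslink the fibrils. In the heart, fibroblasts make most of the fibrillar collagen of types I and III, which accumulates in fibrosis, while type IV collagen forms the sheet-like network of the basement membranes around muscle cells and capillaries.

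The libraries held 23190864 to 30354857 counts, and the 50 genes took 0.316% to 0.609% of them, the highest share in WT replicate 2 and the lowest in KO replicate 3. Single genes had from 13 to 28431 counts in a library. Levels below are counts scaled to the library's TMM-adjusted total (CPM), and fold changes are log2 values, KO minus WT. Compared per kilobase of transcript, Col3a1 was the most abundant chain in WT (119 CPM per kilobase), followed by Col4a1 (115), Col4a2 (99.8), Col1a1 (57.2) and Col1a2 (55.9). Serpinh1 (96.2) and Pcolce (53.3) led the processing genes. Col7a1 (0.233) and Col11a1 (0.188) were the rarest. The difference between Col3a1 and Col4a1 is within the spread of Col3a1 between the WT libraries, which ran from 415 to 1102 CPM.

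WT replicate 2 stood apart from the other libraries in these genes. It was the highest of the 6 libraries for 31 of the 50, against 14.9% of all genes, and it exceeded every other library by more than 1.5 times for 13 of the 50, against 1.18% of all genes. Those 13 were Col1a1, Col1a2, Col3a1, Col5a2, Col7a1, Col8a1, Col8a2, Col11a1, Col12a1, Col16a1, Col22a1, Lox and Loxl3. At the other end, KO replicate 3 was the lowest library for 19 of the 50, against 17.6% of all genes, among them Col4a1, Col4a2, Col5a3, Col15a1, Serpinh1 and Loxl1. WT replicate 1 was the lowest for 6 (Col4a3, Col22a1, Plod2, Lox, Loxl2 and Loxl4), against 21.3% of all genes. Markers of activated fibroblasts were highest in WT replicate 2 as well. The 11 markers of that list, which holds none of the 50 genes, summed to 1629 CPM in WT replicate 2, and 8 of the 11 were highest there. The other WT libraries were at 792 and 661 CPM and KO at 455 to 631 CPM, so the groups did not overlap. Of the 11, 10 were below 0, and 5 did not overlap with KO lower, against 10.5% of all genes. Without WT replicate 2, 7 of the 11 were below 0, with a median of -0.71. The 10 measured markers of fibroblast identity summed to 1926 to 2300 CPM in WT and 1523 to 1578 CPM in KO, so the groups did not overlap. Most of this sum was Gsn, at 1313 to 1377 CPM in WT and 972 to 1005 CPM in KO. Of the 10, 9 were below 0, but only 3 did not overlap with KO lower, and 1 did not overlap with KO higher. The shares over all genes were 10.5% and 11.8%. Heart muscle markers summed to 74130 to 91680 CPM, with overlapping genotypes. Every marker in the table had counts in every library, so none was at 0. Smooth muscle marker sums also did not overlap, at 348 to 514 CPM in WT and 270 to 343 CPM in KO. The margin was narrow, and while 7 of 7 were below 0, only 2 of the 7 did not overlap. Of these 2, Acta2 is also in the activated fibroblast list. Pericyte marker sums overlapped, at 638 to 758 CPM in WT and 635 to 663 CPM in KO, with 5 of 7 below 0. Macrophage marker sums were higher in KO without overlap, at 323 to 405 CPM in WT and 410 to 420 CPM in KO. Of the 9 measured macrophage markers, 3 were below 0, and 1 did not overlap with KO higher. In bulk tissue, a change in the number of cells of a type and in RNA per cell cannot be told apart. The part that either has in the results below was not tested. Where leaving out WT replicate 2 turned a direction or moved a fold change by over 1.5 times, that value is given beside the main one for each gene with values in every library and a fold change above its standard error.

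**Figure D1:**
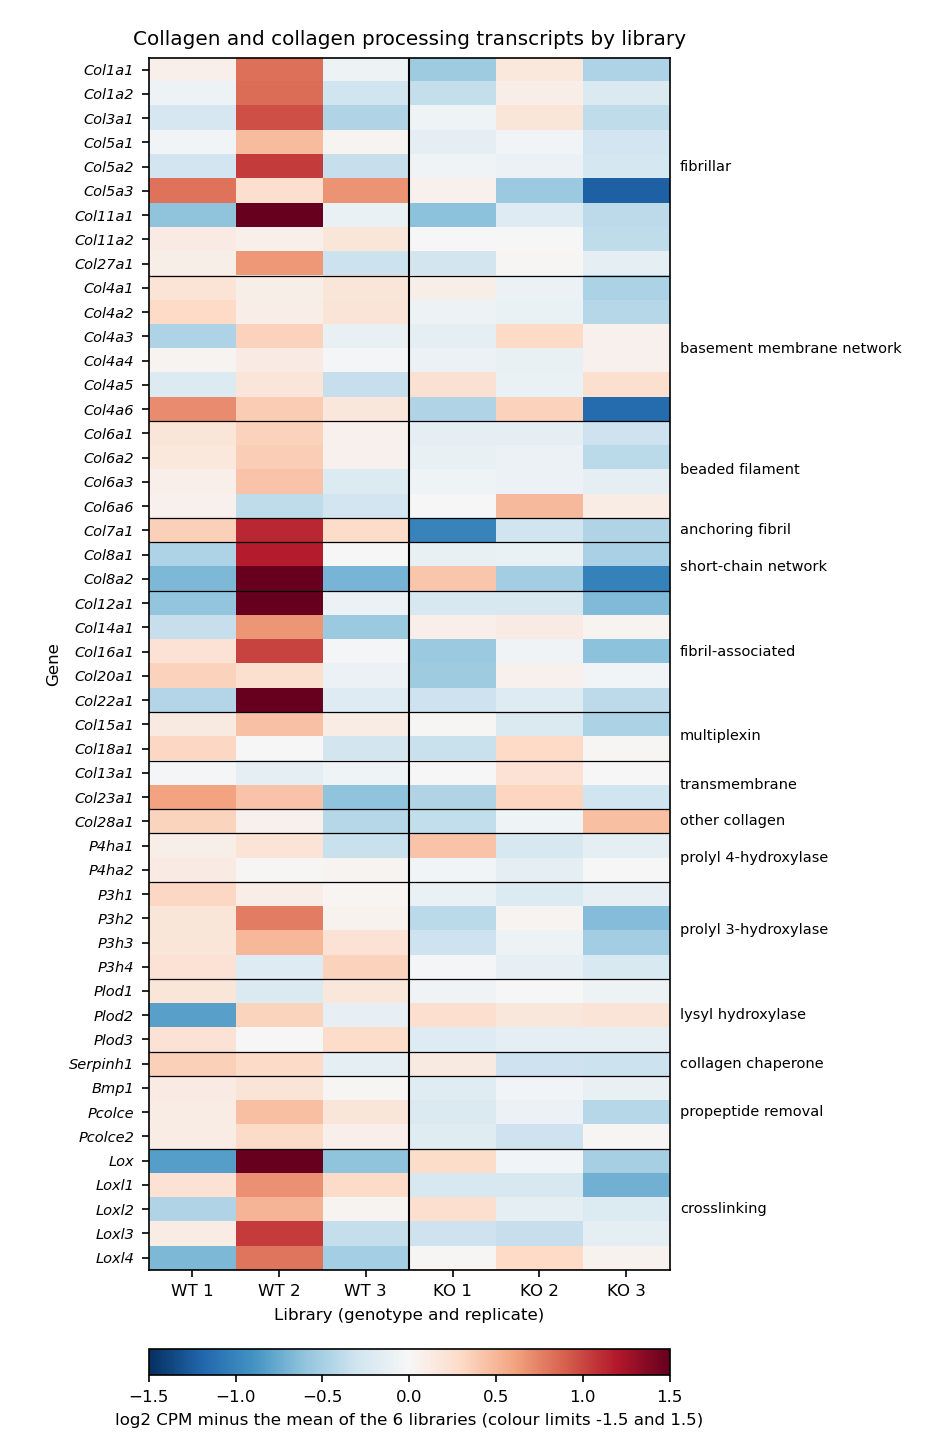
The 50 genes (rows, grouped by collagen class or processing step) in the 3 WT and 3 KO libraries (columns), coloured by log2 CPM minus the gene's mean over the 6 libraries. WT replicate 2 is the highest library for 31 genes, most visibly Col8a2, Col12a1, Col11a1, Col22a1 and Lox, while Col4a1, Col4a2 and Col5a3 are lower in all 3 KO libraries than in any WT library.

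No collagen or processing gene passed the test over all genes, and most were at lower levels in KO. edgeR's quasi-likelihood test with Benjamini-Hochberg adjustment called 15 of 13384 genes (0.112%) at 0.05 and 0 of the 50. The fitted fold change was below 0 for 41 of the 50, against 50.6% of all genes, with a median of -0.33 against -0.0045 over all genes. At an unadjusted p under 0.05, 14 of the 50 were lower, against 8.94% of all genes, and none was higher, against 10.2%. In 18 of the 50 the genotypes did not overlap with KO lower, against 10.5% of all genes, and in 1, Col13a1, with KO higher, against 11.8%. DESeq2 called 618 genes (4.62%) and, among the 50, Loxl1, Col5a3, Col16a1, P3h3 and Pcolce, all lower in KO, as were 1.99% of all genes. With a correction for GC content and transcript length, edgeR called 48 genes (0.359%) and none of the 50. In that fit 40 of the 50 were below 0, against 48.7% of all genes. At an unadjusted p under 0.05, it had 3 of the 50 lower, against 6.6% of all genes, and none higher, against 7.11%.

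Part of the lower KO levels can be described by 2 sets chosen from the values themselves. Other genes below 0, such as Col5a1, Col6a3 and Serpinh1, belonged to neither set. The 13 genes named above were chosen for a high WT replicate 2, and their median fold change was -0.65, and -0.0022 without that library. The 18 genes whose genotypes did not overlap with KO lower ran from -1.19 to -0.11. The choice of each set fixes how it responds to leaving out WT replicate 2, so neither response is a sign of stability. Col7a1 and Col16a1 belonged to both sets and were at -0.86 and -0.48 without that library. Without that library the median over the 32 collagens moved from -0.36 to -0.045, and that over the 18 processing genes from -0.31 to -0.23. In that fit 34 of the 50 were below 0, against 49.6% of all genes. It called 13.6% of all genes, 6.39% lower and 7.25% higher. Of the 50, it called Loxl1, Col4a2 and Plod3 lower, and Col14a1 and Plod2 higher. That is 5 of the 50, which is not above the background share.

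**Figure D2:**
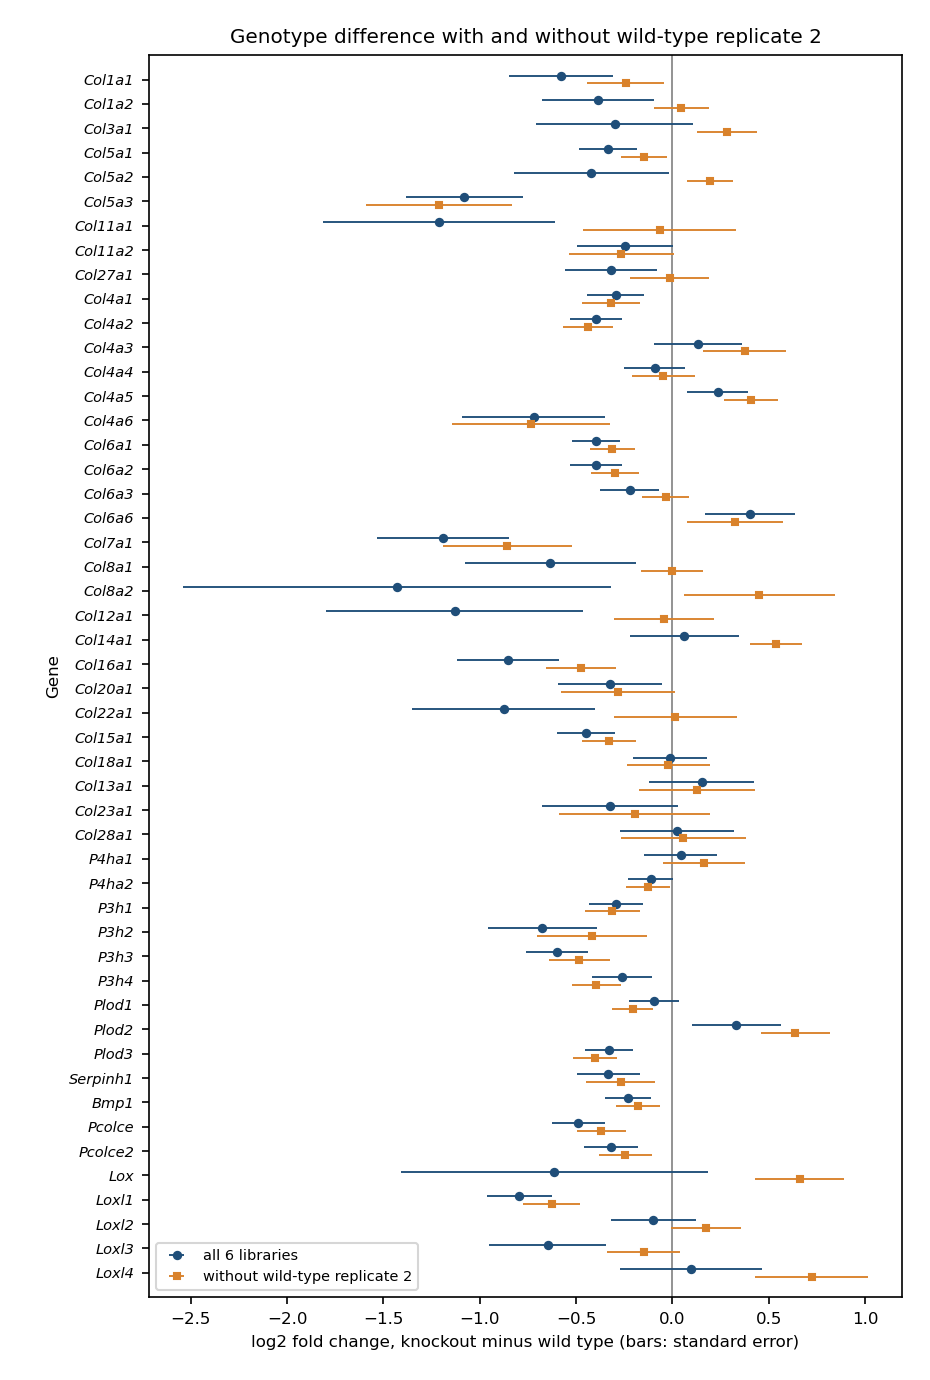
Log2 fold change (KO minus WT, horizontal axis) with its standard error for each of the 50 genes (vertical axis), fitted on all 6 libraries (circles) and without WT replicate 2 (squares). Col3a1, Col5a2, Col8a2 and Lox move from below 0 to above 0 without that library, while Col5a3, Col4a2, Col6a1, Pcolce and Loxl1 stay below 0.

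The upstream sequences of 5 collagen genes are shown as examples of both sets. RefSeq windows on GRCm38.p6 were found for 36 of the 50 genes, and for 19 of them the 250 bases before the start held no annotated exon. Of those shown, Col3a1 (chr1:45311288-45311537 on the plus strand) and Col8a1 (chr16:57754738-57754987 on the minus strand) exceeded every other library by more than 1.5 times in WT replicate 2. Col5a3 (chr9:20815068-20815317 on the minus strand), Col7a1 (chr9:108953336-108953585 on the plus strand) and Col15a1 (chr4:47207762-47208011 on the plus strand) were lower in every KO library than in any WT library, and Col7a1 belonged to both sets. Capitals mark 4 motifs on either strand: CCAAT, the GC box GGGCGG, the SMAD box CAGAC and the TATA box TATAAA. Bases run 5′ to 3′ along the gene's strand:
Col3a1: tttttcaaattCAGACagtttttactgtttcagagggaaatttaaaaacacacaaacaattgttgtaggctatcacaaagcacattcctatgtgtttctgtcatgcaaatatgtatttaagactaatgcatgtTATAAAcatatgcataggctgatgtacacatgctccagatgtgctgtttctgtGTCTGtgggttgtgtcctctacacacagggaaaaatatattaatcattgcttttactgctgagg
Col8a1: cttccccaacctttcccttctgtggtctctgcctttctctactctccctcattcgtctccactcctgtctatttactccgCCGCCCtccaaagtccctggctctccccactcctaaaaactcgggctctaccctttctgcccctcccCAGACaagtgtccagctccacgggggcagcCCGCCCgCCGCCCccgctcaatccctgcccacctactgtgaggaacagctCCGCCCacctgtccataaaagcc
Col5a3: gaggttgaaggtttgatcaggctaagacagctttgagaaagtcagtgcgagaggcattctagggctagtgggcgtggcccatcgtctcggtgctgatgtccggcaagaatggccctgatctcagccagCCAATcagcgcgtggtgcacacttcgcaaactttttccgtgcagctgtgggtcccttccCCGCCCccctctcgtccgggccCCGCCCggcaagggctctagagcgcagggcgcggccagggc
Col7a1: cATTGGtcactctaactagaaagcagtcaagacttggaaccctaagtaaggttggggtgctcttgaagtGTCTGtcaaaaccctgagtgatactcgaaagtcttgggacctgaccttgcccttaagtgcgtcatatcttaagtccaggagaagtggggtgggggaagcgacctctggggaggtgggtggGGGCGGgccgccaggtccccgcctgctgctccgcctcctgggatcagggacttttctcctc
Col15a1: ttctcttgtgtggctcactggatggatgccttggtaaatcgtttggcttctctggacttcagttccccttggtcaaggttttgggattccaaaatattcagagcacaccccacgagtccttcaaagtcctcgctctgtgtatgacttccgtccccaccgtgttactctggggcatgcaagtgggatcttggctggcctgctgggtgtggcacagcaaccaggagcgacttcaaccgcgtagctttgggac
The window of Col3a1 had a GC content of 35.2% and held CAGAC 2 times and TATAAA 1 time, with no GGGCGG, whereas that of Col8a1 had a GC content of 60.8% and held GGGCGG 4 times and CAGAC 1 time. The window of Col5a3 held CCAAT 1 time and GGGCGG 2 times, that of Col7a1 held 1 match to each motif other than TATAAA, and that of Col15a1 held none of the 4 motifs. Over the 19 windows, GGGCGG was found in 14, CAGAC in 11, TATAAA in 4 and CCAAT in 3. In all 32851 RefSeq windows of this length the shares were 32.7%, 42.2%, 12.4% and 33.8%. Those windows include ones that overlap exons and more than 1 for some genes, so they are not a like set to the 19. A match describes the letters only.

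Among the fibrillar collagens, all 9 measured chains had a fold change below 0, with a median of -0.39, and without WT replicate 2 this held for 6 of 9, with a median of -0.067. Col1a1, the alpha-1 chain of type I collagen, was at 285, 477 and 256 CPM in WT replicates 1, 2 and 3 and at 186, 299.9 and 196 CPM in KO. KO replicate 2 exceeded WT replicates 1 and 3, so the groups overlapped (-0.58, SE 0.27, edgeR adjusted p = 0.279). Its partner chain Col1a2 was at 240, 452 and 205 CPM in WT and at 197, 271 and 218 CPM in KO (-0.39, SE 0.29, edgeR adjusted p = 0.497). Col3a1, the chain of type III collagen, was at 475, 1102 and 415 CPM in WT and at 540.2, 642 and 436 CPM in KO (-0.30, SE 0.41, edgeR adjusted p = 0.725). For Col3a1 all 3 KO libraries lay above WT replicate 3, and 2 of them above WT replicate 1. Without WT replicate 2, Col1a1 was at -0.24, Col1a2 at 0.047 and Col3a1 at 0.29 (edgeR adjusted p = 0.440, 0.854 and 0.231).

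Type V collagen, which starts and limits the width of type I fibrils, had chains of both kinds. Col5a2 was at 160 CPM in WT replicate 2 and between 60.8 and 74.7 CPM in the other 5 libraries (-0.42, SE 0.40), and its value was 0.20 without that library. Col5a3 was at 76.2, 51.6 and 69.2 CPM in WT and at 45.3, 29.5 and 18.6 CPM in KO (-1.08, SE 0.30, edgeR adjusted p = 0.132; n = 3 each). Here WT replicate 2 was the lowest of its group and the genotypes did not overlap. The value was -1.21 without that library and -0.82 after a correction for GC content and transcript length in each library. Col5a1 was at 84.2, 121 and 89.4 CPM in WT and at 78.2, 84.5 and 70.9 CPM in KO (-0.33, SE 0.15, edgeR adjusted p = 0.253). Its groups overlapped by a narrow margin, and its value was -0.15 without WT replicate 2. In GRCm38, Col5a3 lies on chromosome 9 from 20770050 to 20815067, and is annotated as protein-coding. Of the minor fibrillar chains, Col11a1 was at 3.02 CPM in WT replicate 2 and at 0.531 to 0.754 CPM in the others (13 to 23 counts), where counting error is large, and its value went from -1.21 to -0.067 without that library. Col11a2 was at 2.91 to 3.11 CPM in WT and 2.12 to 2.75 CPM in KO (-0.25, SE 0.25) without overlap, and was at 0.015 after the GC content and length correction. Col27a1 overlapped (-0.32, SE 0.24), and was at -0.014 without WT replicate 2.

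The basement membrane chains followed another order. Col4a1 was at 787, 729 and 775 CPM in WT and at 729, 646 and 493 CPM in KO (-0.30, SE 0.15, edgeR adjusted p = 0.289), and KO replicate 1 (728.8 CPM) nearly met WT replicate 2 (729.2 CPM). Without KO replicate 3 its value was -0.15. Col4a2, which joins it in the common type IV network, was at 689, 600.4 and 641 CPM in WT and at 529, 522 and 416 CPM in KO (-0.40, SE 0.13, edgeR adjusted p = 0.149). WT replicate 2 was the lowest WT library for both, and without it Col4a2 was at -0.44 and passed (edgeR adjusted p = 0.0415) in a fit that called 13.6% of all genes, and it was at -0.22 after the GC content and length correction (edgeR adjusted p = 0.462). The rarer chains gave no common direction. Col4a5 was at 37.1 ± 7.13 CPM in WT and 43.7 ± 5.67 CPM in KO (SD, n = 3 each). Col4a3 and Col4a4 were at 6.86 ± 1.95 and 10.8 ± 0.549 CPM in WT and at 7.52 ± 1.13 and 10.1 ± 0.690 CPM in KO. Without WT replicate 2, Col4a5 went from 0.24 to 0.41 and Col4a3 from 0.13 to 0.38, and with the GC content and length correction Col4a3 was at -0.035. Col4a6 was at 1.44 to 2.10 CPM in WT and 0.573 to 1.62 CPM in KO. Markers of endothelial cells, which also make type IV collagen, summed to 1637 to 1950 CPM in WT and 1411 to 1843 CPM in KO, and the share that they have in the type IV values was not tested.

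Type IV genes lie head to head in pairs, so the positions of the chains can be set beside their values. On chromosome 8 the starts of Col4a1 (11312826, minus strand) and Col4a2 (11312805, plus strand) are 21 bases apart, and the chains were at -0.30 and -0.40. On chromosome 1 the starts of Col4a3 and Col4a4 are 72 bases apart, and the chains were at 0.13 and -0.091. On the X chromosome 1309 bases separate the starts of Col4a5 and Col4a6, which were at 0.24 and -0.72. Col3a1 and Col5a2, which end toward each other on chromosome 1 with 24614 bases between them, were at -0.30 and -0.42. Both were high in WT replicate 2 (2.48 and 2.57 times the mean of the other WT libraries).

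Type VI collagen forms beaded filaments near basement membranes. Col6a1 was at 150, 167 and 138 CPM in WT and at 119, 120 and 106 CPM in KO (-0.40, SE 0.12, edgeR adjusted p = 0.129). Col6a2 was at 169, 196 and 159 CPM in WT and at 141, 143 and 114 CPM in KO (-0.40, SE 0.14, edgeR adjusted p = 0.152). All KO libraries lay below all WT libraries for both chains, and the values without WT replicate 2 were -0.31 and -0.30. The third common chain gene, Col6a3, overlapped (-0.22, SE 0.15, and -0.035 without WT replicate 2), and the scarce Col6a6 was the highest fold change of the 50 (0.40, SE 0.24, edgeR adjusted p = 0.368).

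Col7a1, the chain of anchoring fibrils, was at 1.77, 3.02 and 1.67 CPM in WT and at 0.694, 1.12 and 1.01 CPM in KO (-1.19, SE 0.34, edgeR adjusted p = 0.112). The groups did not overlap, on 17 to 78 counts per library, and without WT replicate 2 the value was -0.86. The short-chain collagens of type VIII, found in vessel walls, stood out in WT replicate 2. Col8a2 was at 2.06, 18.6 and 2.03 CPM in WT and at 4.41, 2.29 and 1.63 CPM in KO (-1.43, SE 1.11, edgeR adjusted p = 0.532), so WT replicate 2 was 9.08 times the mean of the other WT libraries. Without it the value was 0.45. Col8a1 was at 46.9, 146 and 64.0 CPM in WT and at 59.4, 60.1 and 45.9 CPM in KO, and moved from -0.63 to -0.0022.

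Of the fibril-associated collagens, which sit on the surface of fibrils, Col16a1 was at 22.4, 39.0 and 19.1 CPM in WT and at 13.1, 18.7 and 12.7 CPM in KO (-0.85, SE 0.26, edgeR adjusted p = 0.138). KO replicate 2 nearly reached WT replicate 3, and the value was -0.48 without WT replicate 2. Col22a1 was at 1.15, 4.54 and 1.38 CPM in WT and at 1.27, 1.37 and 1.19 CPM in KO (-0.88, SE 0.47, edgeR adjusted p = 0.329), and Col12a1 was 4.35 times the mean of the other WT libraries in WT replicate 2. Neither differed without that library by more than its standard error (0.016, SE 0.32, and -0.044, SE 0.26). The scarce Col20a1 overlapped (-0.33, SE 0.27). Col14a1 was at 21.9, 43.8 and 18.9 CPM in WT and at 29.4, 30.3 and 28.7 CPM in KO. Its KO libraries lay between the WT libraries, so it was at 0.063 over all 6 libraries and at 0.54 without WT replicate 2 (edgeR adjusted p = 0.0220). The latter fit called 13.6% of all genes. With the GC content and length correction over all 6 libraries, Col14a1 was at -0.057.

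The multiplexin Col15a1, of basement membrane zones in muscle, was at 173, 214 and 169.7 CPM in WT and at 159, 135 and 113 CPM in KO (-0.45, SE 0.15, edgeR adjusted p = 0.145) without overlap. Its relative Col18a1, the source of endostatin, was at 25.9, 20.7 and 17.2 CPM in WT and at 16.5, 25.6 and 21.1 CPM in KO (-0.012, SE 0.19, edgeR adjusted p = 0.979). Its groups overlapped, and it was at 0.19 after the GC content and length correction. The membrane-spanning Col13a1 was at 1.56, 1.43 and 1.51 CPM in WT and at 1.59, 1.83 and 1.59 CPM in KO (0.15, SE 0.27), a difference smaller than its standard error although the groups did not overlap. Col23a1, also membrane-spanning, was at 2.88, 2.56 and 1.25 CPM in WT and at 1.39, 2.37 and 1.54 CPM in KO (-0.32, SE 0.35). Col28a1, a rare collagen outside these classes, was at 3.79, 3.14 and 2.23 CPM in WT and at 2.33, 2.87 and 4.10 CPM in KO (0.026, SE 0.30). Both overlapped. The value of Col23a1 ran from -0.62 to -0.094 with 1 library left out.

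**Figure D3:**
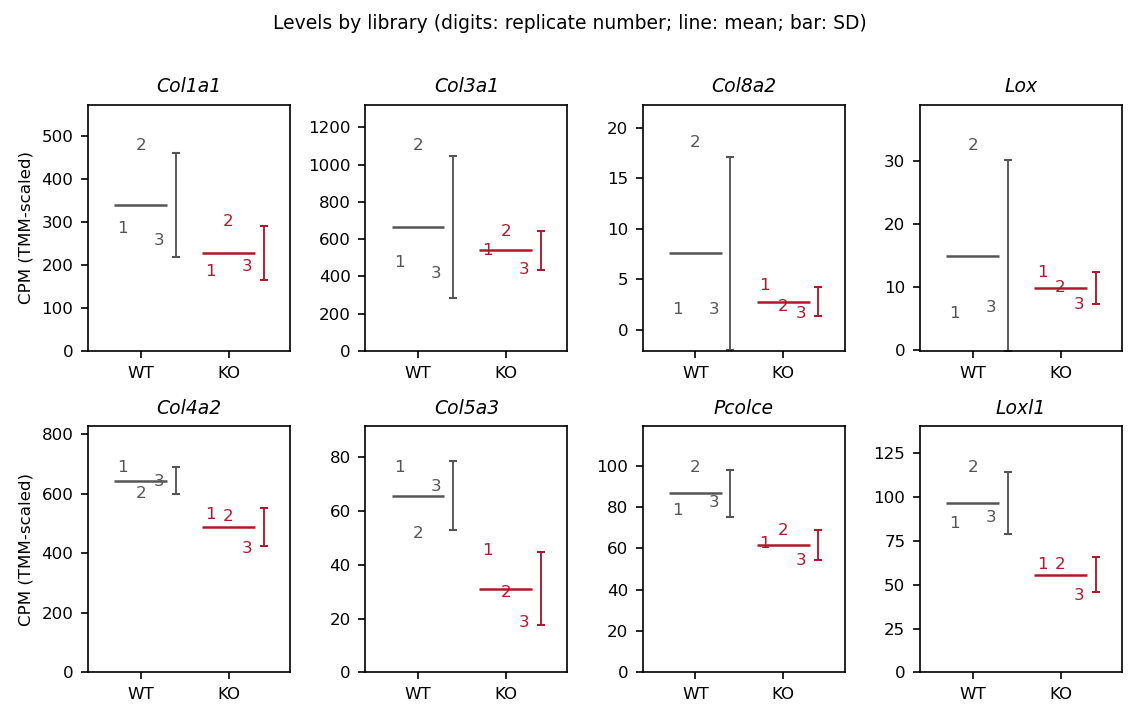
TMM-scaled CPM (vertical axes, each with its own scale) of 8 genes in WT and KO; each digit is the replicate number of 1 library, the line is the mean and the bar 1 SD of 3 libraries. Col1a1, Col3a1, Col8a2 and Lox show WT replicate 2 far above the other WT libraries; in Col4a2, Col5a3, Pcolce and Loxl1 every KO library lies below every WT library.

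Modification of the chains inside the cell begins with prolyl 4-hydroxylation, which stabilises the triple helix. The catalytic subunit genes differed little. P4ha1 was at 85.5, 93.4 and 63.9 CPM in WT and at 108, 68.2 and 73.7 CPM in KO (0.044, SE 0.19), with overlap. P4ha2 was at 61.2, 57.0 and 57.8 CPM in WT and at 55.0, 51.2 and 56.6 CPM in KO (-0.11, SE 0.12), without overlap but by less than its standard error. After the GC content and length trend was removed both changed sign, to -0.085 and 0.033.

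In the prolyl 3-hydroxylase family 4 of 4 genes were below 0, with a median of -0.45. P3h3 was at 20.2, 25.3 and 20.7 CPM in WT and at 14.4, 16.9 and 12.4 CPM in KO (-0.60, SE 0.16, edgeR adjusted p = 0.101). P3h2 was at 3.62, 5.43 and 3.31 CPM in WT and at 2.41, 3.29 and 2.03 CPM in KO (-0.67, SE 0.28, edgeR adjusted p = 0.224), where KO replicate 2 almost met WT replicate 3. P3h1, whose product works in a complex with the products of Crtap and Ppib, was at 24.5, 21.0 and 20.02 CPM in WT and at 18.4, 17.1 and 18.0 CPM in KO (-0.29, SE 0.14). In all 3 the groups did not overlap, and in P3h4, which encodes a family member without hydroxylase activity, they did. With the GC content and length trend removed, P3h3 was at -0.30, P3h1 at -0.11 and P3h4 at 0.031, and P3h2 was at -0.62. P3h2 was at -0.42 without WT replicate 2.

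The lysyl hydroxylases parted. Plod3, whose product also adds sugars to hydroxylysine, was at 54.8, 46.7 and 57.0 CPM in WT and at 41.3, 42.4 and 42.6 CPM in KO (-0.33, SE 0.13, edgeR adjusted p = 0.189), with no overlap. Plod2, which hydroxylates the telopeptides where crosslinks form, was at 17.2, 38.4 and 27.9 CPM in WT and at 36.3, 34.1 and 34.8 CPM in KO (0.33, SE 0.23, edgeR adjusted p = 0.454). The KO values of Plod2 were close together and lay inside the WT range. Without WT replicate 2 both passed the edgeR test, in opposite directions (Plod3 -0.40, adjusted p = 0.0353, and Plod2 0.64, adjusted p = 0.0386). That fit called 13.6% of all genes. Plod2 was at 0.083 without WT replicate 1, and with the GC content and length correction Plod2 was at 0.19 and Plod3 at -0.11. Plod1 was at 152 ± 22.4 CPM in WT and 142 ± 4.27 CPM in KO (SD, n = 3 each).

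Serpinh1, the Hsp47 gene, was at 246, 235 and 175 CPM in WT and at 212, 155 and 154 CPM in KO (-0.33, SE 0.17, edgeR adjusted p = 0.288), with KO replicate 1 above WT replicate 3. Serpinh1 was at -0.13 after the GC content and length correction, and at -0.50 without KO replicate 1. All 3 genes of propeptide removal were lower in every KO library than in every WT library. Pcolce, whose product speeds the cleavage of the C-propeptide, was at 78.3, 99.4 and 82.2 CPM in WT and at 62.6, 68.7 and 54.1 CPM in KO (-0.49, SE 0.14, edgeR adjusted p = 0.110). Pcolce2 was at 27.9, 31.4 and 27.2 CPM in WT and at 22.7, 20.7 and 26.1 CPM in KO (-0.32, SE 0.14, edgeR adjusted p = 0.246). Bmp1, the C-propeptidase itself, was at 67.3 ± 4.23 CPM in WT and 57.5 ± 2.75 CPM in KO (-0.23, SE 0.12; SD, n = 3 each). After the GC content and length trend was removed, Pcolce was at -0.23 and Bmp1 at -0.040, while Pcolce2 was at -0.46.

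Of the crosslinking enzymes, Loxl1, which acts mainly on elastic fibres, had the smallest p of the 50. It was at 84.6, 117 and 88.2 CPM in WT and at 61.6, 61.5 and 44.0 CPM in KO (-0.79, SE 0.17, edgeR adjusted p = 0.0634), and the groups were far apart. It passed without WT replicate 2 (-0.63, edgeR adjusted p = 0.0195), in the fit that called 13.6% of all genes. Its adjusted p ran from 0.00184 to 0.464 over 15 alternatives. The highest of these came with the GC content and length trend removed, where it was at -0.52. In GRCm38, Loxl1 lies on chromosome 9 from 58287738 to 58313186. Lox, the main lysyl oxidase of collagen, was at 5.72, 32.5 and 6.68 CPM in WT and at 12.3, 9.82 and 7.19 CPM in KO. Every KO library thus exceeded WT replicates 1 and 3, and the value went from -0.61 (SE 0.80) to 0.66 (SE 0.23, edgeR adjusted p = 0.0741) without WT replicate 2. Loxl3 was at 11.4, 21.8 and 8.26 CPM in WT and at 8.54, 8.32 and 9.52 CPM in KO (-0.65, SE 0.31, edgeR adjusted p = 0.275), and its value was -0.15 without WT replicate 2. Loxl2 (-0.099, SE 0.22) and Loxl4 (0.097, SE 0.37) overlapped, and both were highest in WT replicate 2 and lowest in WT replicate 1. Without WT replicate 2 they were at 0.18 and 0.72.

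Ratios of chains within a library do not depend on its size factor. The ratio of Col1a2 to Col1a1 counts was 0.844, 0.948 and 0.801 in WT and 1.06, 0.905 and 1.11 in KO, and that of Col3a1 to Col1a1 was 1.67, 2.31 and 1.62 in WT and 2.91, 2.14 and 2.23 in KO. Both had a higher mean in KO, and both overlapped, since WT replicate 2 lay above KO replicate 2 in both and above KO replicate 3 in the second. After the GC content and length correction the log2 difference of the first went from 0.25 to 0.17 and that of the second from 0.38 to 0.21. The type IV and type VI pairs spread less. The ratio of Col4a2 to Col4a1 ran from 0.823 to 0.875 in WT and 0.726 to 0.843 in KO, and that of Col6a2 to Col6a1 from 1.13 to 1.17 and from 1.07 to 1.19. With 3 libraries against 3, the smallest two-sided exact permutation p is 0.1, so no test was made.

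**Figure D4:**
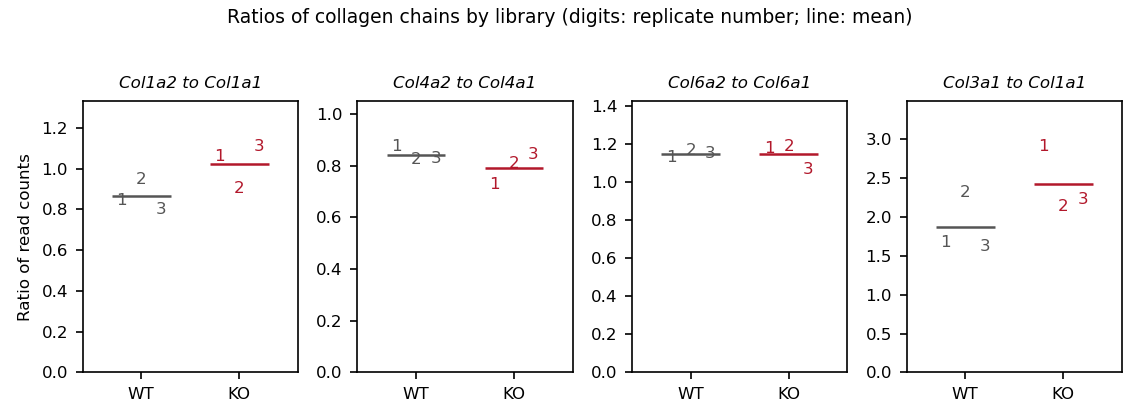
Ratio of read counts (vertical axes, from 0) of 4 pairs of collagen chains in each WT and KO library; digits are replicate numbers and lines are means. Col1a2 to Col1a1 and Col3a1 to Col1a1 have higher KO means (1.03 against 0.865, and 2.43 against 1.87) with overlapping groups, and Col6a2 to Col6a1 has the same mean of 1.15 in both genotypes.

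Other genes that handle collagen lay on both sides of 0. Of 64 measured genes in 7 lists, 36 were below 0 with a median of -0.028, and none passed the edgeR test (0.112% of all genes did). At an unadjusted p under 0.05, 6 of the 64 were lower and 5 higher, against 8.94% and 10.2% of all genes. Without WT replicate 2, 24 were below 0 with a median of 0.10, and 8 passed in the fit that called 13.6% of all genes: Crtap and Bgn lower, and Timp3, Itga1, Itgb1, Ddr2, Thbs2 and Lama2 higher. Among 13 folding and modification partners, 6 were below 0. Crtap, the partner of P3h1, was at 30.7 CPM in WT and 21.4 CPM in KO (-0.52, SE 0.15, edgeR adjusted p = 0.109). Of 8 export genes, 3 were below 0, and Sec23a, a coat protein gene for transport from the endoplasmic reticulum, had the smallest p (0.30, SE 0.14, edgeR adjusted p = 0.258). Of 4 other procollagen peptidase genes, 2 were below 0, with Adamts3 first by p (0.36, SE 0.20, edgeR adjusted p = 0.329).

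Genes for breakdown, receptors and partners of collagen were divided as well. Of 11 genes for breakdown and uptake, 8 were below 0 with a median of -0.27, and without WT replicate 2, 4 were, with a median of 0.10. The collagen uptake receptor Mrc2 was first by p (-0.53, SE 0.17, edgeR adjusted p = 0.143), and at -0.34 without that library. Fibril regulators had 9 of 10 below 0 and 9 of 10 highest in WT replicate 2, and without it 4 of 10 were below 0. The proteoglycan gene Bgn was at -0.87 (SE 0.23, edgeR adjusted p = 0.111), and at -0.52 without that library. Collagen receptors had 4 of 8 below 0, and Itga1, an integrin subunit that binds type IV collagen, was at 27.8 CPM in WT and 38.7 CPM in KO (0.48, SE 0.16, edgeR adjusted p = 0.138). Basement membrane partners had 4 of 10 below 0, against 4 of 6 type IV chains. Lama2, the laminin chain around muscle cells, was at 102 CPM in WT and 148 CPM in KO (0.54, SE 0.16, edgeR adjusted p = 0.110), with no overlap between groups.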

How the data were processed

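The authors deposited raw whole-number counts per gene for 6 libraries, 3 per genotype. Per the submitters' processing notes the build was mm10 and DESeq2 was used; aligner, counter, annotation and strand setting: not given in the sources used here. Every gene in the table had at least 12 counts in every library, and rule symbols outside the table were not analysed here. The robust quasi-likelihood test of edgeR 4.0.16 was run on the counts in R 4.3.3 with TMM size factors, and p-values were adjusted over all 13384 genes. Standard errors come from the test statistic. DESeq2 1.42.0 and limma-voom (limma 3.58.1) were alternatives, as were other size factors and filters, each library left out, and a correction that fits, per library, splines of 4 degrees of freedom on GC content and length of the GENCODE M21 transcript (found for 97.9% of genes). Methods were tested on simulated data. Replicate libraries differed far beyond counting noise. Values in all libraries are given for Col1a1, Col1a2, Col3a1 and the 2 members of smallest p per class, 30 genes in all, and for others chosen after their values were seen. Outside the members, the gene of smallest p in each list is named. The rule for the members uses symbols alone, but the members and lists were chosen with earlier results of these data known.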

Additional observations from a re-analysis of the deposited data

How the results depend on the processing

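RLE and upper quartile size factors and limma-voom left every direction and call of the 30 named genes as it was, and so did a minimum of 5 CPM in 3 libraries for the genes that it kept. The filter on low counts removed no gene, so the fit without it is the same fit and tests nothing. Over all genes, 618 passed with DESeq2, 48 with the GC content and length correction, and 0 to 1826 with 1 library left out (1826 without WT replicate 2, 0 without KO replicate 3, 1 without KO replicate 1, 8 without WT replicate 1). Of the 50 genes, 5 passed with DESeq2 and 0 to 5 with 1 library left out, and of the 64 pathway genes 4 and 0 to 8. In each case the highest leave-one-out count was without WT replicate 2. The median of the collagens ran from -0.49 to -0.045 over the libraries left out, and that of the processing genes was -0.12 with the GC content and length correction and -0.12 (-0.115) with this and the block on replicate number. Under these 2 corrections Col18a1 was at 0.19 and 0.19, Col28a1 at -0.027 and -0.035, P4ha1 at -0.085 and -0.10, and P4ha2 at 0.033 and 0.031. With 1 library left out, Col1a2 ran from -0.60 to 0.047, Col3a1 from -0.55 to 0.29, Col8a2 from -1.94 to 0.45, Col22a1 from -1.20 to 0.016, Col18a1 from -0.18 to 0.15, Col28a1 from -0.23 to 0.21, P4ha1 from -0.19 to 0.17 and the log2 ratio of Col6a2 to Col6a1, KO minus WT, from -0.033 to 0.042. The cause was not tested.

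The labels give both genotypes the numbers 1 to 3. Over all genes, libraries that share a number did not deviate together (correlations of -0.121, -0.0759 and -0.149). These correlations need not hold for the 50 genes, and whether such libraries share more than a number was not tested. With the replicate number as a block, 218 genes passed over all genes (1.63%), 3 of the 50 (Col5a3, Col16a1 and Loxl1) and 1 of the pathway genes, and 33, 0 and 0 with the GC content and length correction added. Genes near the lowest counts, such as Col7a1, Col11a1 and Col4a6, are limited by counting error.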

Other observations

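Mesothelial markers mark the surface layer of the heart, and 3 of the 4 measured were below 0. They summed to 49.4, 26.8 and 23.6 CPM in WT replicates 1, 2 and 3. In KO they summed to 13.5 to 19.5 CPM, so the groups did not overlap. Of the 5 measured markers of atrial muscle, Nppa, which stressed ventricle also makes, was at 2282, 2058 and 623 CPM in WT replicates 1, 2 and 3 and at 449 to 533 CPM in KO. The others were highest in WT replicate 1, and each was lower in WT replicate 2 than in WT replicate 3. Of the 5, 4 were lower in every KO library than in every WT library, Nppa among them, against 10.5% of all genes. The part of the mesothelial and atrial markers in the collagen values was not tested.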
